A study of Mus musculus with 12 samples.

Results

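Transcripts of 9 enzymes of glucose and fructose metabolism were followed in the mouse kidney cortex. They comprise 4 enzymes of gluconeogenesis and fructose breakdown (Pck1, G6pc, Fbp1 and Khk) and 5 of glycolysis (Hk1, Hk2, Pfkp, Pkm and Ldha). Members were found by gene symbol among the 55450 rows of the deposited table. All 9 were present, each in 1 row, and all 9 were among the 15708 genes that passed the filter on low counts. Bulk messenger RNA was sequenced from outer cortex of kidneys taken at 12 weeks of age. Tg26 mice carry a defective HIV-1 provirus under its own viral promoter and serve as a model of kidney disease in HIV infection. Wild-type (WT) mice were the comparison. Mice of both genotypes received either INT-747 (obeticholic acid, which activates the nuclear receptor FXR) or nicotinamide riboside (NR, a precursor of NAD). This gave 4 groups of 3 mice: WT under INT-747, Tg26 under INT-747, WT under NR and Tg26 under NR. Every mouse was treated, so a treatment difference here is INT-747 against NR, and nothing can be said of either agent against no treatment. The dose, the route, the duration of treatment, the sex and the genetic background were not stated in the labels.

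The proximal tubule of the kidney makes glucose from lactate, glutamine and glycerol and releases it to the blood, and it also breaks down fructose. Phosphoenolpyruvate carboxykinase (Pck1), fructose-1,6-bisphosphatase (Fbp1) and glucose-6-phosphatase (G6pc) carry the steps that bypass the irreversible reactions of glycolysis, and ketohexokinase (Khk) phosphorylates fructose. Healthy proximal tubule cells burn fatty acids and use little glycolysis, whereas later nephron segments and leukocytes rely on it more. Hexokinases (Hk1, Hk2) phosphorylate glucose, phosphofructokinase (here the platelet type, Pfkp) commits it to glycolysis, pyruvate kinase (Pkm) makes pyruvate, and lactate dehydrogenase A (Ldha) exchanges pyruvate and lactate.

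Total counts per library ran from 22286343 to 28952177. Tg26 replicate 3 under NR stood apart: it had 5816 counts of Xist and 0 counts over 4 Y-linked genes, against 1 to 8 and 3031 to 5263 in the other 11 libraries, the pattern of a female mouse. All 10 proximal tubule markers were detected in all 12 libraries. Levels are given in CPM (counts scaled to the library total times a TMM factor). The summed level of these markers ran from 14058 to 16142 CPM in WT mice under INT-747 and from 13197 to 15686 in Tg26 mice under INT-747. Under NR it ran from 14111 to 16978 CPM in WT mice and from 10387 to 14464 in Tg26 mice. Slc34a1 was its largest part, with group means of 7260, 7372, 6774 and 6000 CPM. The group means of the sum were 14755, 14766, 15088 and 12197 CPM. Slc7a13 ran from 1.19 to 721 CPM between libraries. The sum of 8 macrophage markers was 85.8 to 118 CPM, 108 to 352 CPM, 51.1 to 81.9 CPM and 66.4 to 608 CPM in the same order of groups. Most of it came from 2 genes. Csf1r had group means of 62.9, 66.6, 31.6 and 53.4 CPM and Lyz2 of 8.45, 75.3, 7.16 and 167 CPM. The group means of the sum were 100, 196, 63.9 and 318 CPM. The sum of 8 markers of injured tubules was 255 to 351 CPM, 267 to 617 CPM, 227 to 281 CPM and 528 to 1476 CPM. Most of this sum was 1 gene, Spp1, with group means of 282, 340, 236 and 846 CPM beside 305, 402, 259 and 993 CPM for the sum. Tg26 replicate 1 under NR had the highest macrophage and injury sums of all 12 libraries and the lowest proximal tubule sum. Markers of skeletal muscle were near 0, and the adrenal enzymes Cyp11b1 and Cyp11b2 had 0 counts in all 12 libraries.

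None of the 9 enzymes differed past the threshold between the groups. Each contrast was tested with edgeR's quasi-likelihood F test, and a gene is called where p, adjusted by Benjamini and Hochberg's method across the 15708 genes, was under 0.05. For Tg26 minus WT under INT-747, 0 of 9 members were called, beside 0.267% of all genes. For Tg26 minus WT under NR, 0 of 9 were called, beside 0% of all genes. For INT-747 minus NR the figures were 0 of 9 beside 0.0127% in WT mice and 0 of 9 beside 4.38% in Tg26 mice. Averaged over treatments the genotype contrast called 0 of 9 beside 0.446%, averaged over genotypes the treatment contrast called 0 of 9 beside 0.427%, and the interaction called 0 of 9 beside 0%. At an unadjusted p under 0.05 the members numbered 2, 6, 1, 4, 3, 1 and 3 in these 7 contrasts, beside 15.3%, 20.7%, 5.01%, 27.3%, 20%, 17.7% and 15.5% of all genes. DESeq2 called 0, 3, 0, 2, 2, 0 and 2 members, beside 3.34%, 6.16%, 0.389%, 13.8%, 7.61%, 4.94% and 1.57% of the 15698 genes it tested, with no adjusted p for Hk2 in 4 of the contrasts. Each p-value sets a group difference against a spread between mice that is shared by the 4 groups. The Tg26 libraries under NR differed most among themselves, and the p-values rest on these mice only.

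Levels differed widely between the members. Per kilobase of exon, the mean over 12 libraries was 3310 CPM for Pck1, 699 for Fbp1, 528 for G6pc, 324 for Khk, 199 for Ldha, 34.8 for Pkm, 10.9 for Hk1, 3.25 for Pfkp and 0.128 for Hk2. All 4 gluconeogenic and fructose enzymes thus stood above all 5 glycolytic enzymes on this length-corrected scale. The length is that of all annotated exons of a gene joined, whichever transcripts are expressed. The order did not hold without the correction, as Ldha averaged 659 CPM and Khk 582 CPM. In plain CPM Pck1 ranked 7 among the tested genes, whereas Hk2 ranked 13829 and rested on 3 to 117 counts per library. By the SD of log2 CPM over the libraries, Fbp1 and Khk were among the steadier members, at percentiles 35.5 and 40.3 of all tested genes, and Hk2 was at percentile 97.4.

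**Figure D1:**
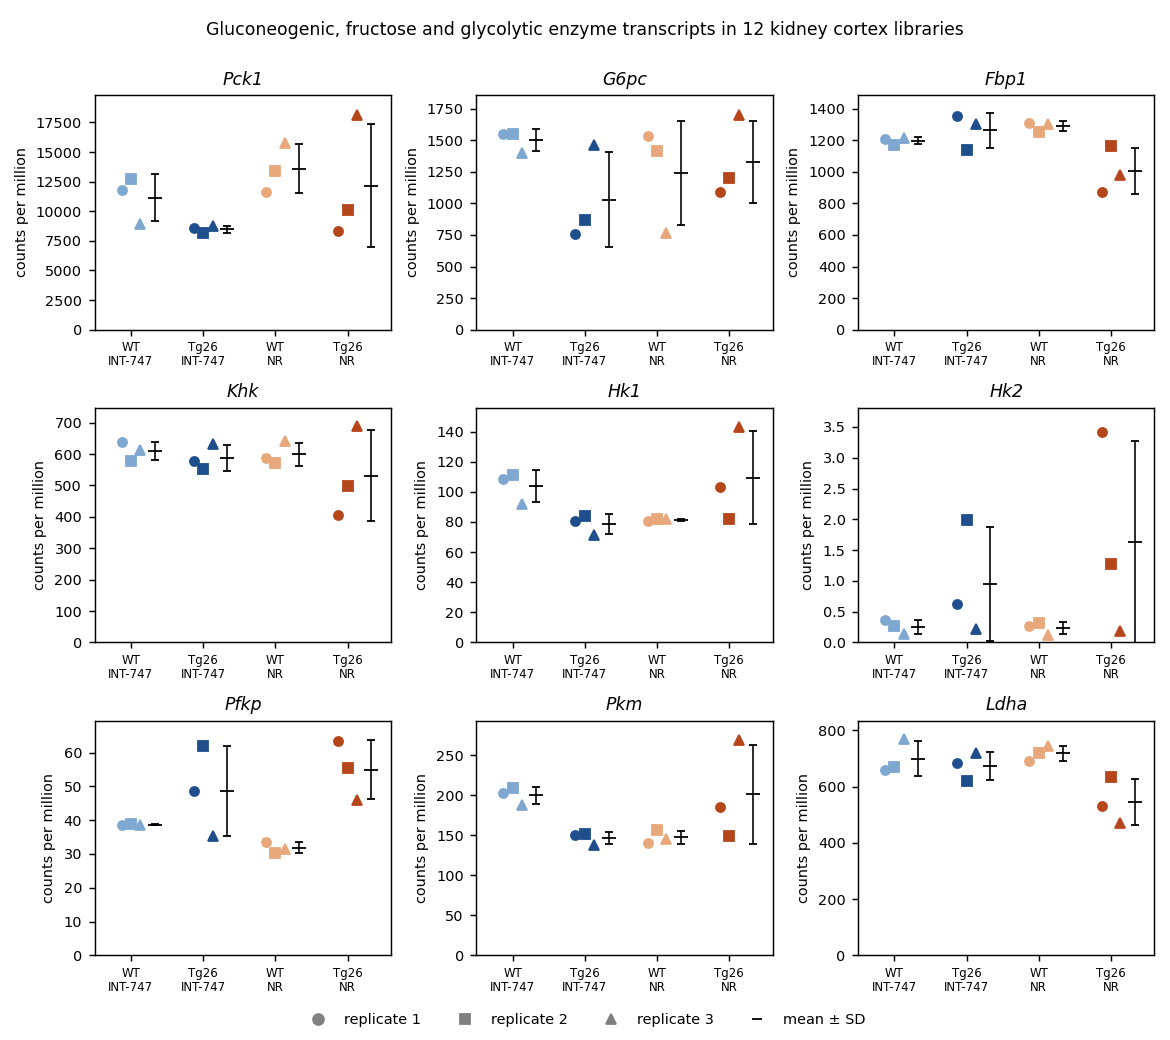
Levels of the 9 enzyme transcripts in CPM (vertical axes, from 0) in each of the 12 libraries, grouped by genotype and treatment; symbols mark replicates 1 to 3, and the bar beside them is the mean ± SD of 3 mice. Tg26 replicate 3 under NR is the highest library for Pck1, G6pc, Khk, Hk1 and Pkm, and Tg26 replicate 1 under NR is the highest for Hk2 and Pfkp.

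Pck1, which turns oxaloacetate into phosphoenolpyruvate at the entry to gluconeogenesis, lies at chr2:173153048-173159273 on the plus strand (mm10). Its level was 11775, 12733 and 8920 CPM in WT mice under INT-747 and 8575, 8159 and 8744 CPM in Tg26 mice under INT-747. Pck1 under NR was 11649, 13414 and 15728 CPM in WT mice and 8299, 10083 and 18112 CPM in Tg26 mice. The Tg26 libraries under INT-747 were all below the WT libraries under INT-747, while the groups overlapped under NR, where Tg26 replicate 3 was the highest of all 12. The log2 fold change of Tg26 against WT was −0.39 ± 0.25 (SE; adjusted p = 0.478) under INT-747 and −0.16 ± 0.25 (adjusted p = 0.761) under NR. Without Tg26 replicate 3 under NR, the value under NR was −0.55 (adjusted p = 0.105), and the genotype contrast averaged over treatments passed the threshold at −0.47 (adjusted p = 0.037). INT-747 against NR gave −0.29 ± 0.25 in WT mice (adjusted p near 1) and −0.52 ± 0.25 in Tg26 mice (adjusted p = 0.208), and the Tg26 value was −0.14 (adjusted p = 0.655) without Tg26 replicate 3 under NR. A score of circadian clock genes rises with genes such as Dbp, Per2 and Nr1d1 and falls with Arntl, Npas2, Clock and Nfil3. It was 2.37 to 3.05 in Tg26 mice under INT-747 and −0.15 to 0.69 in WT mice under INT-747. Under NR it ran from −0.54 to 3.15 in WT mice and from 0.59 to 3.41 in Tg26 mice. Its genes differed unequally: under INT-747 the WT and Tg26 means were 15.8 and 17.8 CPM for Nr1d1, 8.49 and 39.5 CPM for Dbp and 22.8 and 4.81 CPM for Arntl. With this score as a covariate the genotype value of Pck1 was 0.06 ± 0.25 under INT-747 and 0.04 ± 0.20 under NR. Under INT-747 the score did not overlap between the genotypes, so genotype and clock phase cannot be told apart there. The same limit holds for every gene given with the clock score below, and the part of clock phase was not tested.

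G6pc, which releases free glucose as the last step of gluconeogenesis, lies at chr11:101367561-101377903 on the plus strand. Its level was 1553, 1550 and 1399 CPM in WT mice under INT-747 and 758, 872 and 1459 CPM in Tg26 mice under INT-747. Under NR it was 1536, 1418 and 766 CPM in WT mice and 1087, 1204 and 1699 CPM in Tg26 mice. Tg26 replicate 3 under INT-747 and WT replicate 3 under NR lay apart from the other replicates of their groups, and the groups overlapped in each of the 4 simple contrasts. The genotype log2 fold change was −0.54 ± 0.29 (adjusted p = 0.396) under INT-747 and 0.10 ± 0.29 (adjusted p = 0.881) under NR, where it was −0.09 without Tg26 replicate 3 and −0.13 without WT replicate 3. Under INT-747 it was −0.88 without Tg26 replicate 3. G6pc followed Pck1 only loosely, with a Pearson correlation of log2 CPM of 0.33 over the 12 libraries. Tg26 replicate 3 under NR was the highest of the 12 libraries for both genes. WT replicate 3 under NR had the second highest Pck1 and the second lowest G6pc. The G6pc to Pck1 ratio ran from 0.0487 in that library to 0.167 in Tg26 replicate 3 under INT-747. The correlation was not computed without WT replicate 3 under NR.

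The promoters of these 2 gluconeogenic enzymes are shown because their levels ranged by 2.22-fold and 2.24-fold between libraries with only a loose correlation. Each is the 250 bases before the RefSeq transcription start (GRCm38.p6), Pck1 at chr2:173152823-173153072 and G6pc at chr11:101367466-101367715, both on the plus strand. Capitals mark matches to 3 motifs searched on both strands: the core of the cAMP response element (TGACG, or CGTCA on the other strand), the core of the hypoxia response element (ACGTG, or CACGT) and the E-box (CACGTG, which contains the hypoxia core).
Pck1: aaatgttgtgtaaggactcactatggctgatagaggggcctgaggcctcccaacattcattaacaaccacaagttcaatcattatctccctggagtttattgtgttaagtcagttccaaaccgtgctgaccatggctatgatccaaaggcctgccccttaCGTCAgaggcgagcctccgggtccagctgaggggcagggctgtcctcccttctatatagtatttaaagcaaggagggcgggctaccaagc
G6pc: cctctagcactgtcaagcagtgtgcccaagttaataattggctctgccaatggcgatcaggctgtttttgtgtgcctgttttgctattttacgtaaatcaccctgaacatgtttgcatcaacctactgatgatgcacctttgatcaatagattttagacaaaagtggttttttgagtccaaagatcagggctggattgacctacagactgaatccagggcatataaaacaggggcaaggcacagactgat
Pck1 held 1 cAMP response element core and G6pc held none of the 3 motifs in this window. Among 32851 mouse promoters of this length, 17.8% held the first motif, 16.6% the second and 6.02% the third. A match of letters is not a measured binding site.

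Fbp1, which removes a phosphate from fructose-1,6-bisphosphate, lies at chr13:62864753-62888282 on the minus strand. Its level was 1207, 1173 and 1213 CPM in WT mice under INT-747 and 1352, 1138 and 1302 CPM in Tg26 mice under INT-747. Fbp1 under NR was 1312, 1254 and 1304 CPM in WT mice and 875, 1163 and 978 CPM in Tg26 mice. All 3 Tg26 libraries under NR were below all 3 WT libraries under NR, whereas the genotypes overlapped under INT-747. Fbp1 had a genotype log2 fold change of −0.36 ± 0.12 under NR (adjusted p = 0.149) and 0.08 ± 0.12 under INT-747 (adjusted p = 0.775), and their difference, the interaction, was 0.44 ± 0.17 (adjusted p = 0.282). In Tg26 mice INT-747 against NR gave 0.33 ± 0.12 (adjusted p = 0.104). DESeq2 called Fbp1 in both contrasts that contain Tg26 mice under NR (adjusted p = 0.0284 for genotype and 0.0261 for treatment). So did edgeR without Tg26 replicate 2 under NR, at −0.46 (adjusted p = 0.036) and 0.43 (adjusted p = 0.023). Without replicate 3 of that group, the library with the female pattern, the values were −0.32 (adjusted p = 0.167) and 0.29 (adjusted p = 0.186). Without replicate 1 they were −0.28 (adjusted p = 0.398) and 0.24 (adjusted p = 0.237). The proximal tubule marker sum was lowest in replicate 1 of the same group, which also had the lowest Fbp1. Replicate 3 of that group had the second lowest sum, 11740 CPM, and the second lowest Fbp1. It had the highest Pck1, G6pc and Khk of all libraries. In bulk cortex, fewer cells of a type and less RNA per cell cannot be told apart.

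Khk, the first enzyme of fructose breakdown, lies at chr5:30921431-30931248 on the plus strand. Its level was 637, 578 and 613 CPM in WT mice under INT-747 and 577, 552 and 632 CPM in Tg26 mice under INT-747. Khk under NR was 586, 572 and 641 CPM in WT mice and 405, 498 and 688 CPM in Tg26 mice. The Tg26 group under NR held both the lowest and the highest library, so its coefficient of variation was 27.2%, against 4.86% to 6.95% in the other groups. The genotype log2 fold change under NR was −0.18 ± 0.16 (adjusted p = 0.563), −0.39 without Tg26 replicate 3 (adjusted p = 0.079) and −0.03 without Tg26 replicate 1. Under INT-747 it was −0.05 ± 0.16 (adjusted p = 0.891).

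Hk1 and Pkm, the hexokinase of most tissues and the pyruvate kinase of most tissues other than liver and red cells, had nearly the same pattern over the 12 libraries. Hk1 (chr10:62268855-62379908, minus strand) was at 108, 111 and 91.9 CPM in WT mice under INT-747 and at 80.9, 84.3 and 71.3 CPM in Tg26 mice under INT-747. Under NR it was at 80.4, 81.7 and 82.1 CPM in WT mice and at 103, 82.1 and 143 CPM in Tg26 mice. Under INT-747 the Tg26 libraries were all below the WT libraries, and under NR they were all above them, with Tg26 replicate 2 and WT replicate 3 both at 82.1 CPM to 3 digits. Pkm (chr9:59656368-59679375, plus strand) was at 202, 209 and 187 CPM in WT mice under INT-747 and at 150, 152 and 138 CPM in Tg26 mice under INT-747. Under NR it was at 141, 157 and 146 CPM in WT mice and at 186, 149 and 269 CPM in Tg26 mice. The Pkm genotypes were also apart under INT-747, and overlapped under NR through Tg26 replicate 2.

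The genotype log2 fold change of Hk1 was −0.40 ± 0.16 under INT-747 (adjusted p = 0.282) and 0.43 ± 0.16 under NR (adjusted p = 0.182), and the interaction was −0.83 ± 0.23 (adjusted p = 0.243). For Pkm the same values were −0.45 ± 0.17 (adjusted p = 0.257), 0.45 ± 0.17 (adjusted p = 0.180) and −0.89 ± 0.24 (adjusted p = 0.239). With the clock score as covariate both genes were at −0.17 under INT-747, and Hk1 was at 0.53 and Pkm at 0.56 under NR. Opposite signs under the 2 treatments left the averaged genotype contrast at 0.01 ± 0.12 for Hk1 and 0.00 ± 0.12 for Pkm. In WT mice INT-747 against NR gave 0.35 ± 0.16 for Hk1 (adjusted p = 0.999) and 0.43 ± 0.17 for Pkm (adjusted p = 0.894), with all INT-747 libraries above all NR libraries for both genes. The sum of 5 thick ascending limb markers was also apart in WT mice, 2863 to 3852 CPM under INT-747 against 1936 to 2165 CPM under NR. All 5 markers had a positive log2 fold change there, with a median of 0.68. In Tg26 mice the treatment values were −0.47 ± 0.16 for Hk1 (adjusted p = 0.098) and −0.46 ± 0.17 for Pkm (adjusted p = 0.114). Which Tg26 library under NR was left out decided these calls. Without replicate 2 edgeR called both genes for genotype under NR, at 0.61 for Hk1 (adjusted p = 0.0375) and 0.64 for Pkm (adjusted p = 0.0342), and for treatment in Tg26 mice, at −0.66 (adjusted p = 0.0155) and −0.65 (adjusted p = 0.0161). DESeq2 on all libraries called Hk1 for treatment in Tg26 mice (adjusted p = 0.0422). Without replicate 2 the interaction passed the threshold, at −1.02 for Hk1 (adjusted p = 0.0408) and −1.09 for Pkm (adjusted p = 0.0374), as it did with DESeq2 on all libraries (adjusted p = 0.045 and 0.0285). Without replicate 3, the library with the female pattern, the genotype value under NR was 0.21 for Hk1 and 0.20 for Pkm, and the treatment value in Tg26 mice was −0.26 and −0.21 and the interaction was −0.61 and −0.65, none past the threshold. That library also had the highest thick ascending limb marker sum, 4771 CPM against 1936 to 3852 CPM in the other 11. Its marker sums were also the highest of all libraries for distal convoluted tubule (1807 CPM), principal cells (307), intercalated cells (209) and podocytes (563). The limb sum was 2751 to 3054 CPM in Tg26 mice under INT-747, above that of WT mice under NR. Hk1 and Pkm were at similar levels in these 2 groups. The part of tubule mix in these values was not tested.

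The promoters of Hk1 and Pkm are shown because these members were each other's closest match. RefSeq lists 2 starts for each. The windows are chr10:62379909-62380158 and chr10:62340422-62340671 (minus strand) for Hk1 and chr9:59656326-59656575 and chr9:59656977-59657226 (plus strand) for Pkm, with capitals as above.
Hk1, first start: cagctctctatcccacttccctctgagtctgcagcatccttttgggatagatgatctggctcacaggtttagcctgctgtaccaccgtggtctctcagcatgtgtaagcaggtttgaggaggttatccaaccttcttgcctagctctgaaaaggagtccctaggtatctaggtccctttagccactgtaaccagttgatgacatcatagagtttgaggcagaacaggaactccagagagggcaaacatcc
Hk1, second start: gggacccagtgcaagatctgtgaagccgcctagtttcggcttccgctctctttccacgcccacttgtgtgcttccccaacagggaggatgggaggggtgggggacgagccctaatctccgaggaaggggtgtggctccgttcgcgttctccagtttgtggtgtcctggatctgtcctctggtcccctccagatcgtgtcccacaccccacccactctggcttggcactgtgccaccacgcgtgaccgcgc
Pkm, first start: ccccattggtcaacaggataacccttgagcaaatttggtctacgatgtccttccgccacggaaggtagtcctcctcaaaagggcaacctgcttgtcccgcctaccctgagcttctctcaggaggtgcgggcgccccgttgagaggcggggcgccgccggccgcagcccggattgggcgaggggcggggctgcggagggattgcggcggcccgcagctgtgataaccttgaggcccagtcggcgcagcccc
Pkm, second start: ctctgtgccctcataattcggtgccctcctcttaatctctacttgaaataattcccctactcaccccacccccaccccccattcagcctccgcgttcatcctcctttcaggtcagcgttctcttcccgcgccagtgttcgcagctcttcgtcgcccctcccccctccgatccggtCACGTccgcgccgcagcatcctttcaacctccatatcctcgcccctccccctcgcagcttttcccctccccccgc
Neither Hk1 window held any of the 3 motifs, and of the Pkm windows the second held 1 hypoxia core. Gene counts do not separate the M1 and M2 forms of Pkm, which differ by the choice of an exon. An unclassified transcript, Gm49759, overlaps Pkm on the same strand and had 83 to 248 counts.

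Hk2, the inducible hexokinase, was scarce. Its locus is chr6:82725025-82774454 on the minus strand. It had 0.359, 0.260 and 0.130 CPM in WT mice under INT-747 and 0.632, 1.996 and 0.218 CPM in Tg26 mice under INT-747. Under NR it had 0.266, 0.312 and 0.118 CPM in WT mice and 3.42, 1.27 and 0.191 CPM in Tg26 mice. In both Tg26 groups replicate 3 was within the WT range and the other replicates were above it. Tg26 against WT gave a log2 fold change of 1.91 ± 0.99 under INT-747 (adjusted p = 0.382), 2.82 ± 0.99 under NR (adjusted p = 0.164) and 2.37 ± 0.70 over both treatments (adjusted p = 0.109). The averaged value passed the threshold with DESeq2 (2.38, adjusted p = 0.0149) and without Tg26 replicate 3 under NR (2.64, adjusted p = 0.0251), and was 1.27 (adjusted p = 0.622) with the clock score as covariate. Single libraries moved the values by treatment, to 0.75 under INT-747 without Tg26 replicate 2 of that group and to 1.64 under NR without Tg26 replicate 1 of that group. With the clock score the value was 0.62 under INT-747 and 1.93 under NR. Macrophage markers stood beside it: the 4 libraries with most Hk2 were the 4 with the highest macrophage sum, 608, 352, 281 and 126 CPM for 3.42, 1.996, 1.27 and 0.632 CPM of Hk2. All 8 macrophage markers had a positive genotype value under NR, with a median log2 fold change of 2.05; edgeR called 0 of them, 8 had an unadjusted p under 0.05, and DESeq2 called 4. The part of infiltrating cells in the Hk2 values was not tested.

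Pfkp, the platelet type of phosphofructokinase, lies at chr13:6579768-6648777 on the minus strand. Its level was 38.7, 38.8 and 38.7 CPM in WT mice under INT-747 and 48.5, 62.1 and 35.4 CPM in Tg26 mice under INT-747. Under NR it was 33.5, 30.4 and 31.5 CPM in WT mice and 63.5, 55.4 and 46.0 CPM in Tg26 mice. The genotypes were apart under NR, all 3 Tg26 libraries being above all 6 WT libraries of either treatment, and overlapped under INT-747 through Tg26 replicate 3. The genotype log2 fold change under NR was 0.79 ± 0.17, a 1.73-fold ratio (adjusted p = 0.125), and that under INT-747 was 0.33 ± 0.17 (adjusted p = 0.381). The INT-747 value was 0.10 without Tg26 replicate 2 of that group and 0.16 with the clock score as covariate, and the NR value was 0.66 (adjusted p = 0.380) without Tg26 replicate 1. Averaged over treatments Pfkp was at 0.56 ± 0.12 (adjusted p = 0.0744). DESeq2 called Pfkp under NR (adjusted p = 0.00424) and on average (adjusted p = 0.00211). Without Tg26 replicate 3 under NR, edgeR called it under NR at 0.92 (adjusted p = 0.0462) and on average at 0.62 (adjusted p = 0.0213), and without Tg26 replicate 3 under INT-747 it called the average at 0.66 (adjusted p = 0.0366). Of the 9 members Pfkp had the smallest genotype p under NR. As with Hk2, the 4 libraries highest in Pfkp, at 63.5, 62.1, 55.4 and 48.5 CPM, were the 4 with the highest macrophage sums, 608, 352, 281 and 126 CPM, and the part of infiltrating cells in the Pfkp values was not tested. The gene Pitrm1 overlaps it on the opposite strand, and the strand setting of the counting is not stated. Pitrm1 had a genotype log2 fold change under NR of 0.09 ± 0.14.

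Ldha lies at chr7:46841475-46855627 on the plus strand. Its level was 660, 668 and 770 CPM in WT mice under INT-747 and 685, 620 and 718 CPM in Tg26 mice under INT-747. Ldha under NR was 691, 719 and 744 CPM in WT mice and 531, 635 and 471 CPM in Tg26 mice. All 3 Tg26 libraries under NR were below all other Ldha values except that of Tg26 replicate 2 under INT-747, at 620 CPM. For Ldha the genotype value was −0.40 ± 0.12 under NR (adjusted p = 0.142) and −0.05 ± 0.12 under INT-747 (adjusted p = 0.859). In Tg26 mice INT-747 against NR gave 0.31 ± 0.12 (adjusted p = 0.137), and 0.19 (adjusted p = 0.328) without Tg26 replicate 3 under NR. Ldha thus had the sign of Fbp1, not that of the other glycolytic members, in Tg26 mice under NR. DESeq2 called it in the NR genotype contrast (adjusted p = 0.0316). Without Tg26 replicate 2 under NR, edgeR called it there at −0.50 (adjusted p = 0.0375) and in the Tg26 treatment contrast at 0.41 (adjusted p = 0.0352). The genotype value of Ldha under NR was −0.28 (adjusted p = 0.187) without Tg26 replicate 3 and −0.39 (adjusted p = 0.384) without Tg26 replicate 1. The window before its first RefSeq start, chr7:46845554-46845803 on the plus strand, is shown because it was the richest in motifs of the 12 windows of the members.
Ldha, first start: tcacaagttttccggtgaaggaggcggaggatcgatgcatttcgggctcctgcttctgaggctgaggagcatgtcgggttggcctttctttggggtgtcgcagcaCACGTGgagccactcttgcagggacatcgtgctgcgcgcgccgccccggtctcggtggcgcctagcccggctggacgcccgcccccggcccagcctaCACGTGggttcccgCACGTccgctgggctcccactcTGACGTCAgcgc
It held 2 cAMP response element cores, 5 hypoxia cores and 2 E-boxes, where a palindromic E-box counts as a hypoxia core on each strand.

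Read by contrast, the signs of the members were mixed. Under INT-747, 3 members had all Tg26 libraries below all WT libraries (Pck1, Hk1 and Pkm) and 0 had them above. Of all genes 13.5% were below and 12.5% above, 26% in either direction. Under NR, 2 members were above (Hk1 and Pfkp) and 2 below (Fbp1 and Ldha), where 10.2% of all genes were above and 9.54% below, 19.7% in either direction. Between treatments in WT mice, Hk1, Pfkp and Pkm were above and Fbp1 below under INT-747, 4 of 9 beside 12.9% of all genes, 6.65% above and 6.21% below. In Tg26 mice 0 of 9 members were free of overlap between treatments, beside 28% of all genes. The median log2 fold change of the 9 members was −0.05 for genotype under INT-747, 0.10 for genotype under NR, 0.12 for treatment in WT mice and −0.37 for treatment in Tg26 mice. The medians over all genes were 0.01, −0.01, −0.01 and −0.04. The contrasts share groups: the Tg26 libraries under NR enter both the genotype contrast under NR and the treatment contrast in Tg26 mice, with opposite sign.

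**Figure D2:**
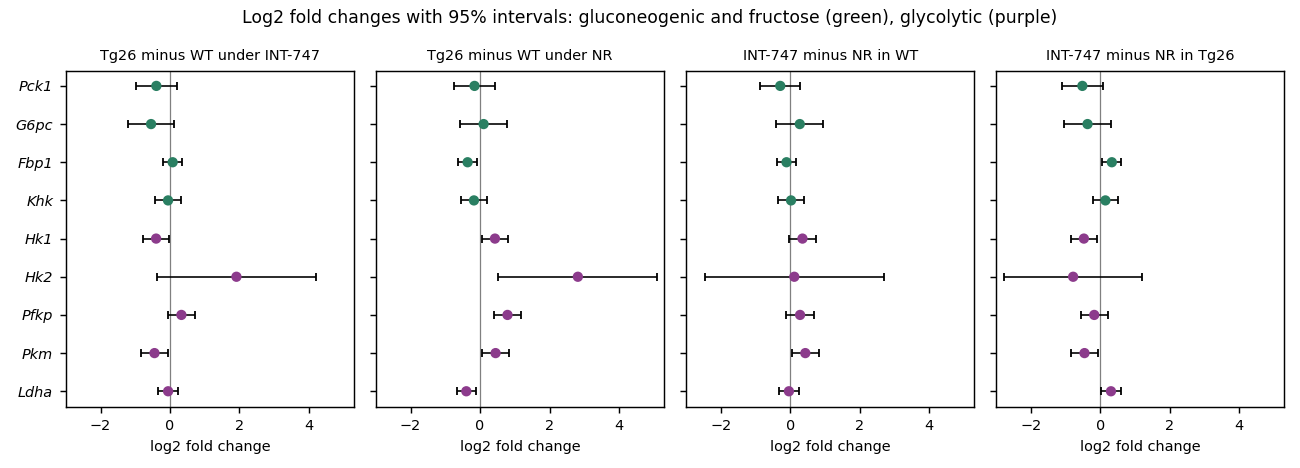
Log2 fold changes (points) with 95% intervals from the edgeR fit (bars) of the 9 members in the 4 simple contrasts; gluconeogenic and fructose enzymes are green and glycolytic enzymes purple. Hk2 has the widest intervals, and the interval of Pfkp for Tg26 minus WT under NR runs from 0.39 to 1.19.

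The intervals give what the data leave possible for the members of the first group. For genotype under NR, the 95% interval was −0.74 to 0.42 for Pck1, −0.57 to 0.77 for G6pc, −0.63 to −0.09 for Fbp1 and −0.55 to 0.19 for Khk. Under INT-747 it was −0.97 to 0.19 for Pck1, −1.22 to 0.13 for G6pc, −0.19 to 0.35 for Fbp1 and −0.42 to 0.31 for Khk. These intervals are not adjusted for the number of genes.

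The balance of the 2 groups was described by an index, the mean log2(CPM + 0.5) of Pck1, G6pc, Fbp1 and Khk minus that of Hk1, Hk2, Pfkp, Pkm and Ldha. It was 5.13 ± 0.02 (SD, n = 3) in WT mice under INT-747, 4.86 ± 0.43 in Tg26 mice under INT-747, 5.35 ± 0.04 in WT mice under NR and 4.71 ± 0.55 in Tg26 mice under NR. WT libraries lay within narrow bands, 5.11 to 5.15 under INT-747 and 5.32 to 5.39 under NR, that did not overlap. Tg26 libraries were at 4.79, 4.46 and 5.32 under INT-747 and at 4.13, 4.76 and 5.23 under NR, so that Tg26 replicate 3 had the highest index of its group in both treatments, above the WT libraries under INT-747 and below them under NR. The group difference of Tg26 minus WT was −0.27 under INT-747 and −0.64 under NR. The INT-747 value was 0.13 as a difference of medians over the members, and −0.07 with Tg26 replicate 2 of that treatment left out. The NR value was −0.35 with Tg26 replicate 1 of the NR group left out. INT-747 minus NR was −0.22 in WT mice and 0.15 in Tg26 mice. The Tg26 treatment difference depended on 1 library: leaving out Tg26 replicate 1 of the NR group gave −0.14, and leaving out replicate 3 gave 0.41. The Tg26 libraries with the lowest index, 4.13 and 4.46, had the highest macrophage sums, 608 and 352 CPM. Without Hk2, an alternative chosen after seeing the data, the genotype differences were −0.09 under INT-747 and −0.46 under NR.

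**Figure D3:**
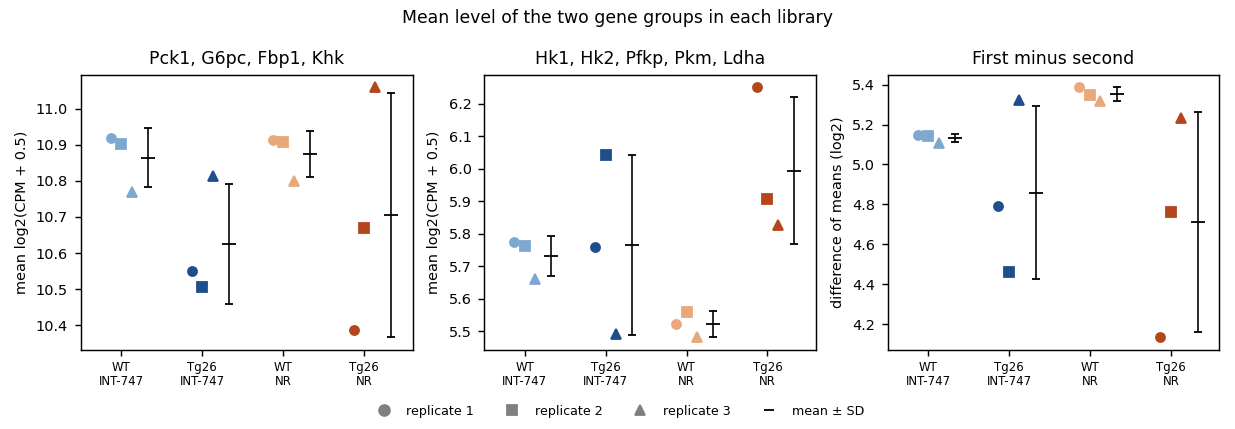
Mean log2(CPM + 0.5) of the 4 gluconeogenic and fructose enzymes (left), of the 5 glycolytic enzymes (middle) and their difference (right) in each library; bars are the mean ± SD of 3 mice, and the vertical axes do not start at 0. The WT libraries lie close together, and the Tg26 libraries spread from 4.13 to 5.32 in the difference.

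For each member the genes with the most similar pattern were sought among 11697 tested genes whose log2 CPM averaged 1 or more. Likeness was the root mean square difference between mean-centred log2 CPM over the 12 libraries, so a smaller value means a closer match. Hk1 and Pkm were each other's nearest gene, at 0.0588, followed by Syne1 for Hk1 (0.104) and Tmc4 for Pkm (0.106). The nearest genes to Hk2 were Nckap1l (0.150) and Arhgap30 (0.158), both expressed in blood cells, and those to Pfkp were Sirpa (0.119), a receptor of myeloid cells, and Lpcat4 (0.131). Nckap1l was at 18.7, 9.94 and 7.77 CPM in the 3 libraries with most Hk2 and at 2.74 to 4.38 CPM in the other 9. Pck1 was nearest to Hadha (0.129), a subunit of the enzyme complex of mitochondrial fatty acid oxidation, and to Acot8 (0.129). G6pc had no close match, its nearest genes being Star (0.208) and Klf1 (0.215). Khk was nearest to Pgk1 (0.089), a glycolytic kinase, and to Tkfc (0.0909), which phosphorylates the glyceraldehyde made from fructose. Fbp1 was nearest to Ptgr2 (0.0532) and Larp4 (0.0585), and Ldha to Mrps18b (0.0571) and Anapc16 (0.059). All points come from the same 12 libraries, so a shift in tissue mix or depth is shared by every pair.

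**Figure D4:**
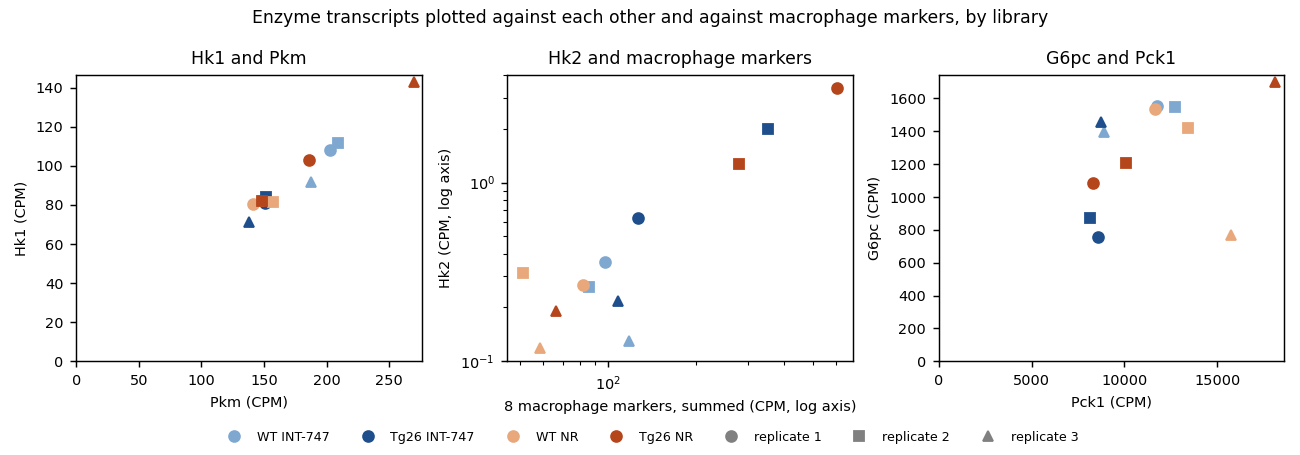
Each point is 1 of 12 libraries, with colour for the group and symbol for the replicate: Hk1 against Pkm in CPM (left), Hk2 against the sum of 8 macrophage markers, both on log axes in CPM (middle), and G6pc against Pck1 in CPM (right). Hk1 and Pkm lie along a line, the 4 libraries highest in Hk2 are the 4 highest in macrophage markers, and WT replicate 3 under NR combines 15728 CPM of Pck1 with 766 CPM of G6pc.

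The pathway around the members was read from 7 lists with 81 tested genes. For genotype, edgeR called 0 of the 81 under INT-747 and 0 under NR, 19 and 13 had an unadjusted p under 0.05 (15.3% and 20.7% of all genes), and DESeq2 called 8 and 4 (3.34% and 6.16% of all genes). The 13 other gluconeogenic genes had a median log2 fold change of −0.05 under INT-747 and −0.11 under NR, with 9 of 13 below 0 under each. The smallest p under INT-747 belonged to the alanine aminotransferases Gpt2 (0.85 ± 0.19) and Gpt (−0.54 ± 0.14), which differ in sign, and under NR to pyruvate carboxylase Pcx (−0.53 ± 0.19) and to Pck2 (0.27 ± 0.11), the mitochondrial carboxykinase. Pcx was at 1744, 1518 and 1720 CPM in WT mice under NR and at 799, 1408 and 1242 CPM in Tg26 mice under NR, without overlap. Of the 6 other fructose and sorbitol genes, the smallest p belonged to Glyctk (0.45 ± 0.13) and the fructose carrier Slc2a5 (−0.86 ± 0.34) under INT-747 and to sorbitol dehydrogenase Sord (−0.39 ± 0.16) and Tkfc (−0.16 ± 0.12) under NR. The 18 other glycolytic genes had medians of −0.04 and −0.02. Pklr (−0.38 ± 0.23) and Aldoc (−0.39 ± 0.26) came first under INT-747, and Eno2 (1.36 ± 0.32) and Aldoc (0.74 ± 0.26) under NR. Eno2, an enolase best known from neurons, was at 1.77, 1.38 and 1.92 CPM in WT mice and 5.99, 3.82 and 3.25 CPM in Tg26 mice under NR.

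Regulators and transporters gave no genotype call with edgeR. Of 11 genes that control glycolysis and pyruvate use, Pdp2 (−0.54 ± 0.23) and Pdk4 (−2.12 ± 1.03) had the smallest p under INT-747 and the phosphatase Pdp1 (0.74 ± 0.20) and the kinase Pdk3 (−0.57 ± 0.31) under NR. Of 12 glucose and lactate carriers, the sodium-glucose carrier Slc5a2 (−0.42 ± 0.15) and the lactate carrier Slc16a1 (−1.83 ± 0.71) came first under INT-747, and the glucose carriers Slc2a3 (1.48 ± 0.48) and Slc5a1 (0.49 ± 0.18) under NR. Of 16 transcription factors and co-activators known to control these pathways, 13 had a negative genotype value under each treatment, with medians of −0.27 under INT-747 and −0.15 under NR. At an unadjusted p under 0.05 they numbered 9 under INT-747, beside 15.3% of all genes, and 2 under NR, beside 20.7%. DESeq2 called 4 and 2 of the 16, beside 3.34% and 6.16% of all genes. Cebpa (−0.93 ± 0.19) and Epas1 (−0.48 ± 0.11) came first under INT-747, and the carbohydrate response factor Mlxipl (−0.43 ± 0.10) under NR. Mlxipl was at 217, 255 and 280 CPM in WT mice under NR and at 176, 198 and 183 CPM in Tg26 mice under NR. Of 5 genes of renal ammonia formation, which runs alongside gluconeogenesis from glutamine, the glutamine carrier Slc38a3 was at −1.06 ± 0.36 under INT-747 and −0.78 ± 0.36 under NR, and the bicarbonate carrier Slc4a4 at −0.24 ± 0.14 under NR.

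Between treatments in Tg26 mice 6 of the 81 listed genes passed the threshold, where 4.38% of all genes did, and DESeq2 called 18, beside 13.8% of all genes. Pck2 fell under INT-747 against NR, at 14.2, 14.3 and 11.5 CPM against 20.3, 20.1 and 21.5 CPM, a log2 fold change of −0.63 ± 0.11 (adjusted p = 0.0262). Fbp2, the muscle type of fructose bisphosphatase, fell from 18.3, 13.9 and 27.6 CPM under NR to 10.5, 9.06 and 8.80 CPM under INT-747 (−1.08 ± 0.21, adjusted p = 0.0287). Cebpa, a transcription factor known in mouse liver to activate gluconeogenic genes, fell from 20.03, 14.9 and 20.5 CPM to 7.83, 7.87 and 7.93 CPM (−1.23 ± 0.19, adjusted p = 0.0201). The INT-747 libraries lay below the NR libraries for all 3 genes. The minor isozymes Pck2 and Fbp2 were far below their main counterparts Pck1 and Fbp1 in CPM.

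The other called genes were carriers of lactate and a kinase. Slc5a12 fell from 286, 328 and 472 CPM under NR to 225, 208 and 198 CPM under INT-747 (−0.79 ± 0.16, adjusted p = 0.0299), whereas Slc5a8 rose from 140, 219 and 110 CPM to 295, 298 and 328 CPM (0.97 ± 0.23, adjusted p = 0.0433). Both carry lactate with sodium across the luminal membrane of the proximal tubule, and Slc5a12 was also in the proximal tubule marker list. Glyctk, glycerate kinase of the fructose pathway, rose from 134, 139 and 124 CPM to 222, 190 and 222 CPM (0.67 ± 0.13, adjusted p = 0.0287). In WT mice the same treatment contrast gave −0.31 ± 0.11 for Pck2, −0.67 ± 0.21 for Fbp2, −0.45 ± 0.18 for Cebpa, −0.17 ± 0.16 for Slc5a12, 0.36 ± 0.23 for Slc5a8 and 0.11 ± 0.13 for Glyctk, none called. Averaged over genotypes, Pck2 (−0.47 ± 0.08, adjusted p = 0.0271), Fbp2 (−0.87 ± 0.15, adjusted p = 0.0306) and Cebpa (−0.84 ± 0.13, adjusted p = 0.0203) passed the threshold. These averaged calls were lost in 7, 8 and 7 of the 12 fits that left out 1 library, with adjusted p up to 0.103, 0.108 and 0.0845. DESeq2 called all 6 in Tg26 mice. These calls depended on single libraries: all 6 were lost without replicate 1 or without replicate 3 of Tg26 mice under INT-747. Of the 12 fits that left out 1 library, Slc5a8 lost its call in 10. The others lost theirs in 4 (Pck2), 5 (Fbp2), 5 (Glyctk), 3 (Slc5a12) and 3 (Cebpa). Fbp2 (−0.80), Slc5a12 (−0.57), Slc5a8 (0.75) and Glyctk (0.61) came nearest 0 without Tg26 replicate 3 under NR, the library with the female pattern. Pck2 and Cebpa came nearest 0 without other libraries. Over the 12 libraries left out in turn, the adjusted p reached 0.0983 for Pck2, 0.13 for Fbp2, 0.13 for Glyctk, 0.17 for Slc5a8, 0.133 for Slc5a12 and 0.0941 for Cebpa, with every log2 fold change on its side of 0.

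**Figure D5:**
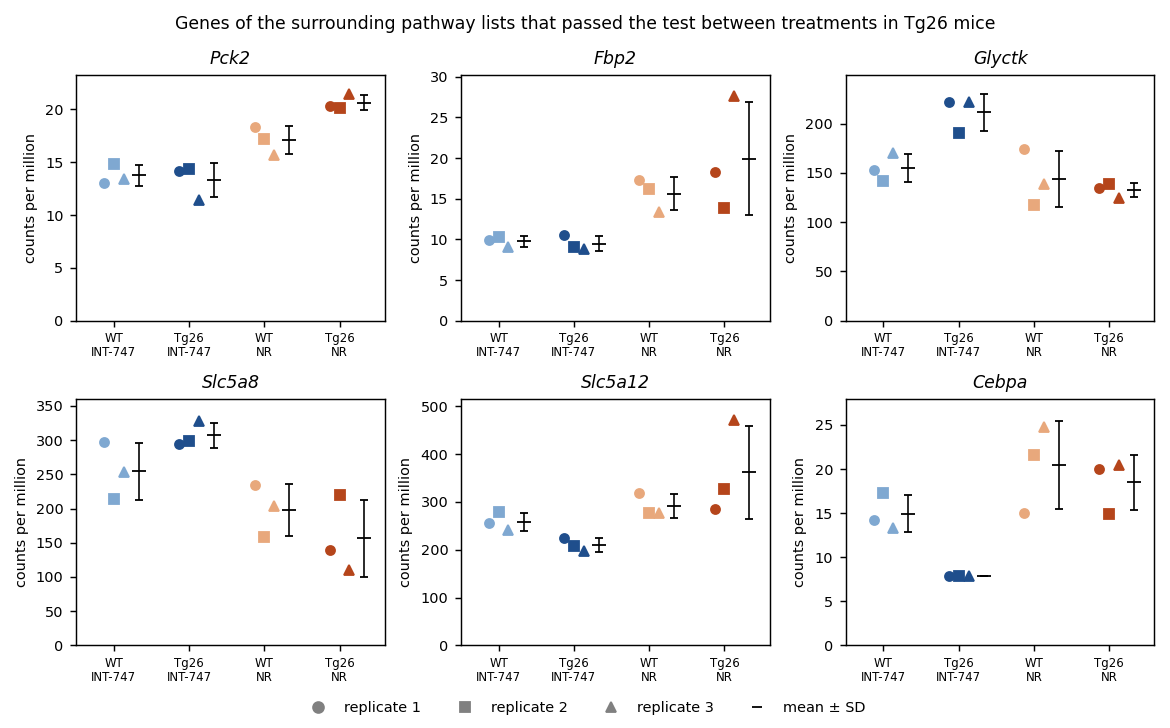
Levels in CPM (vertical axes, from 0) of the 6 genes of the surrounding lists that passed the test between INT-747 and NR in Tg26 mice, by group, with symbols for replicates 1 to 3 and bars for the mean ± SD of 3 mice. Pck2, Fbp2, Slc5a12 and Cebpa are lower and Glyctk and Slc5a8 higher in Tg26 mice under INT-747 than in Tg26 mice under NR, with no overlap.

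Beyond these 6 genes edgeR called none of the lists in the same contrast. Over all 81 genes, 25 had an unadjusted p under 0.05 (27.3% of all genes) and DESeq2 called 18. Of the 18 other glycolytic genes edgeR called 0, 3 had an unadjusted p under 0.05 and DESeq2 called 3, with Eno2 at −1.16 ± 0.31 and the isomerase Tpi1 at 0.44 ± 0.13. Of the 11 control genes edgeR called 0, 5 had an unadjusted p under 0.05 and DESeq2 called 2, with Pdk3 at 0.97 ± 0.31 and Pfkfb3 at −0.46 ± 0.16. Epas1 was at −0.37 ± 0.11, Sord at 0.34 ± 0.16, Slc9a3 at 0.54 ± 0.18 and Glud1 at −0.77 ± 0.30. In WT mice edgeR called 0 of the 81 listed genes between treatments, 8 had an unadjusted p under 0.05 (5.01% of all genes) and DESeq2 called 1 (0.389% of all genes). The smallest p belonged to Fbp2 and Pck2 (above), Slc2a5 (0.47 ± 0.34), Aldoc (0.98 ± 0.26), Pgam1 (−0.16 ± 0.10), Pfkfb3 (−0.68 ± 0.16), Pfkfb1 (−0.35 ± 0.30), Slc2a9 (−0.36 ± 0.15), Nr3c1 (0.19 ± 0.08), Slc4a4 (−0.22 ± 0.14) and Glud1 (−0.35 ± 0.30).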

How the data were processed

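Libraries were stranded TruSeq messenger RNA libraries, per the labels' protocols. The submitters' processing notes name bcl2fastq 2.17, cutadapt 1.18, STAR 2.7.0f, RSEM 1.3.1 and the build mm10; their order, settings and annotation release are not stated. The deposited values are RSEM expected counts (estimated reads per gene, not scaled to depth); all were whole numbers, and rounding left them as they were. All gene IDs matched GENCODE release 21 for mouse, from which positions and exon lengths were taken.

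Groups came from the labelled genotype and treatment. Counts were filtered with filterByExpr, scaled by TMM and fitted with edgeR 4.0.16 (robust quasi-likelihood, 4 group means, all 12 libraries, 8 residual degrees of freedom) in R 4.3.3 with limma 3.58.1; 7 contrasts were tested with Benjamini-Hochberg adjustment over 15708 genes. CPM are TMM-scaled, and a pseudocount of 0.5 was used for log2 levels. SE is the log2 fold change divided by the root of F. DESeq2 1.42.0, RLE size factors, no filter, a replicate block, a clock score as covariate (mean log2 level of 10 clock genes minus that of 4 of opposite phase) and leaving out each library were alternatives. Same-group libraries differed by more than sampling noise. On simulated data with 15708 genes, changes of 2-fold were recovered for 58% and of 4-fold for 83% of 100 genes each in the NR genotype contrast. The simulated counts had the same fitted spread in every group and no outlying library. In the data, pairs of Tg26 libraries under NR differed most (chi-square per degree of freedom 54.6 to 187, against 13.6 to 46.4 in the other groups). These rates can therefore overstate recovery in that contrast. The members and lists were chosen with earlier results of these data known. Named from the lists are all called genes and the 2 of smallest p per list in each simple contrast, except 2 that are not reported here. Likeness was computed over genes averaging a log2 CPM of 1 or more, leaving out predicted genes, clones and pseudogenes, with 2 genes named per member. Promoters are from RefSeq (GRCm38.p6), which listed all 9 members with 12 starts.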

Additional observations from a re-analysis of the deposited data

Results flagged for a closer look

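Hk1 was set aside because its 2 genotype effects pointed in opposite directions: all Tg26 libraries were below all WT libraries under INT-747, and all Tg26 libraries were above all WT libraries under NR. It was the 1 member with this pattern, which 205 of the 15708 tested genes showed (1.31%). The difference between the genotype effects was −0.83 on the log2 scale and did not pass the threshold in edgeR's quasi-likelihood test (adjusted p = 0.243, and from 0.0408 to 0.497 over the libraries left out in turn). The lowest of these came without Tg26 replicate 2 under NR, where the difference was −1.02, and DESeq2 called it on all libraries (adjusted p = 0.045). Without Tg26 replicate 3 under NR the genotype value under NR was 0.21 and the difference −0.61 (adjusted p = 0.286). With the clock score as covariate the genotype value under INT-747 was −0.17 and the difference −0.70 (adjusted p = 0.282). The clock score did not overlap between the genotypes under INT-747, so the 2 cannot be told apart there. Under NR the nearest libraries of the 2 genotypes were both at 82.1 CPM.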

How the results depend on the processing

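Of 311 values of single members under alternatives other than leaving out a library, 294 kept their direction and their side of the threshold, as did 706 of 756 with 1 library left out. The number of genes called moved most. Without the filter on low counts it was 64 (42 with the filter) for genotype under INT-747, 6 (0) for genotype under NR and 122 (67) for treatment averaged over genotypes. DESeq2 called 525 genes for genotype under INT-747, 967 under NR, 61 for treatment in WT mice (edgeR 2), 2167 in Tg26 mice (edgeR 688), 1195 for the averaged genotype contrast (edgeR 70), 776 for the averaged treatment contrast and 247 for the interaction (edgeR 0). With the clock score as covariate the counts were 2 for genotype under INT-747, 5 for treatment in WT mice, 1211 for treatment in Tg26 mice, 2 for averaged genotype and 633 for averaged treatment. The cause of these shifts was not tested.

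There was no clear sign that replicate numbers paired the mice. Of 18 same-numbered pairs of libraries, 5 had deviations from their group means correlated above 0.1, in a range of −0.37 to 0.39. With a replicate block the counts were 11 for genotype under INT-747, 71 for treatment in Tg26 mice and 37 for averaged treatment, and 0 members were called. Under the block Fbp2, Glyctk, Slc5a8 and Slc5a12 missed the threshold in Tg26 mice (adjusted p = 0.0593, 0.0536, 0.077 and 0.0643), as did Pck2 and Fbp2 on average (0.0515 and 0.0764). Without the filter Slc5a8 missed it (0.0632).

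With 1 library left out the counts ran from 0 to 195 for genotype under INT-747, from 0 to 785 under NR, from 2 to 5 for treatment in WT mice, from 0 to 2320 in Tg26 mice, from 0 to 1223 for averaged genotype, from 9 to 400 for averaged treatment and from 0 to 174 for the interaction. For treatment in Tg26 mice the 0 came without Tg26 replicate 1 under INT-747 and the 2320 without Tg26 replicate 2 under NR.

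Some values of members, none called, changed sign. With the clock score Pck1 was at 0.062 and Khk at 0.15 for genotype under INT-747, Pck1 at 0.037 for genotype under NR, Khk at −0.038 for treatment in WT mice, Pck1 at 0.049 and Khk at 0.033 for averaged genotype, and Pck1 at 0.025 for the interaction. With the replicate block Pkm was at −0.0062 for averaged genotype. With 1 library left out, genotype under INT-747 ran from −0.10 to 0.011 for Ldha. Genotype under NR ran from −0.55 to 0.037 for Pck1 and from −0.13 to 0.29 for G6pc. Treatment in WT mice ran from −0.0090 to 0.080 for Khk, from −0.21 to 0.42 for Hk2 and from −0.11 to 0.0033 for Ldha. In Tg26 mice it ran from −0.019 to 0.36 for Khk and from −1.97 to 0.39 for Hk2. Averaged genotype ran from −0.10 to 0.10 for Hk1 and from −0.13 to 0.094 for Pkm. Averaged treatment ran from −0.22 to 0.051 for G6pc, from −0.00010 to 0.19 for Khk, from −0.15 to 0.048 for Hk1, from −0.93 to 0.25 for Hk2, from −0.065 to 0.14 for Pfkp and from −0.11 to 0.11 for Pkm. The interaction ran from −0.44 to 0.15 for Pck1, from −0.037 to 0.33 for Khk and from −2.09 to 0.28 for Hk2.

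The index for genotype ran from −0.50 to −0.07 under INT-747 and from −0.90 to −0.35 under NR, and for treatment from −0.24 to −0.20 in WT mice and from −0.14 to 0.41 in Tg26 mice. Taken as a difference of medians over the members, it was 0.13 for genotype under INT-747. Without Hk2, chosen after seeing the data, it was −0.26 for treatment in WT mice. Hk2 rests on 3 to 117 counts per library, and depth limits it more than the other members.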
